A study of Homo sapiens with 16 samples.

Results

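The zinc finger genes of chromosome 19 were taken as every gene of the count table that lies on chromosome 19 and whose symbol starts with ZNF, and every gene of the splicing table that does so. This gave 241 genes, on 242 of the 1300 chromosome 19 rows and of 18093 rows in all, and 95 genes with 158 of the 6716 local splicing variations. The samples were cells of HL60, a human myeloid leukaemia line. They were kept for 5 h in SY-351 at 50 nM or in the solvent DMSO as control. SY-351 inhibits CDK7, a kinase that belongs to the general transcription factor TFIIH and phosphorylates the tail of RNA polymerase II. Each group had 4 numbered replicates of polyadenylated RNA from unmodified cells, and the labels do not call them separate cultures. Every p-value here covers the spread among the libraries alone, which may be technical. No RNA standard was counted, so every level is relative, and fewer cells and less RNA per cell cannot be told apart.

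Most human C2H2 zinc finger genes arose by tandem duplication, and chromosome 19 carries the largest collection of them, in clusters of neighbouring and closely related genes. The fingers bind DNA, and in many of these proteins a KRAB box near the amino end recruits TRIM28, which brings the histone H3 lysine 9 methyltransferase SETDB1 and HP1 proteins to the bound site. Many of them bind and silence transposable elements. The genes are themselves packed in H3K9-methylated chromatin, which ZNF274 helps to place at the finger-coding exons of other members.

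A KRAB A box was found in the proteins of 204 of the 241 genes by a pattern of 12 conserved positions with at most 3 mismatches, and it was not found in 37. A looser pattern found 205, and a diverged box can be missed by either. The KRAB genes had a median of 13 fingers and the others 9, and ZNF729 had the most, 39. Of the 241 genes 238 could be tested. ZNF177, ZNF320 and ZNF816 had 0 counts in all libraries, and each shares nearly its whole counted interval with another row on the same strand, where shared reads are not assigned. Closely related members can also lose or exchange reads, so levels of near-identical copies are uncertain.

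Promoters of the KRAB genes and of the others were read for base content and short motifs. The median GC content of the 300-base promoter (250 bases before the RefSeq start and 50 after it, on GRCh38.p14) was 59% in 175 KRAB genes, 64.2% in 34 of the others and 63% in all 14393 genes of the table with a promoter entry. The ETS factor core CCGGAAG, searched on both strands, was in 85 of the 175 KRAB promoters (48.6%), in 9 of 34 of the others (26.5%) and in 14.6% of all promoters. The CCAAT box, CCAAT, was in 58.9% of KRAB promoters, 26.5% of the others and 36.5% of all. The GC box, GGGCGG, was in 65.1%, 79.4% and 59.8% of the same sets in that order. TATAAA was in 4 KRAB promoters (2.29%), in 0 of the others and in 9.3% of all. Matches for the NRF1 site GCATGCGC (4%, 5.88% and 4.34%), the CRE TGACGTCA (3.43%, 2.94% and 2.65%), the ZNF143 core CTACAATTC (0.571%, 2.94% and 0.438%) and the YY1 core AAGATGGCG (4%, 2.94% and 2.93%) were in few promoters of each set. A match is a string of letters and was not shown to be bound. The promoters of 4 genes are shown because their genes carry the comparisons below. ZNF549 and ZNF274 fell in every comparison, ZNF460 was the gene called higher against the 4 controls, and ZNF579 had the largest fall against them. Capitals mark matches to these motifs, 5′ to 3′ on the strand of the gene.
ZNF549, chr19:57527106-57527405, plus strand: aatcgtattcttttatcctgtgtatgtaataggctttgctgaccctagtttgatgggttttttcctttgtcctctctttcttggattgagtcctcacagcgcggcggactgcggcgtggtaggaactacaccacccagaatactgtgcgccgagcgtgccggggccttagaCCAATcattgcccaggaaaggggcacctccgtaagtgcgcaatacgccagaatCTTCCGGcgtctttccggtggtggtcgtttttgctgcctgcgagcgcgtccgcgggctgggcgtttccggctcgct
ZNF274, chr19:58182811-58183110, plus strand: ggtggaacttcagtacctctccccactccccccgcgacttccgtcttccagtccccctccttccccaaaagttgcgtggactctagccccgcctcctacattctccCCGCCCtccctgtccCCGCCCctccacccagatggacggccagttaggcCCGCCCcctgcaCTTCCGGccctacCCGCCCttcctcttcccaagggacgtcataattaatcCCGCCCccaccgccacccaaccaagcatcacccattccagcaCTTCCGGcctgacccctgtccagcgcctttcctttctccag
ZNF460, chr19:57279732-57280031, plus strand: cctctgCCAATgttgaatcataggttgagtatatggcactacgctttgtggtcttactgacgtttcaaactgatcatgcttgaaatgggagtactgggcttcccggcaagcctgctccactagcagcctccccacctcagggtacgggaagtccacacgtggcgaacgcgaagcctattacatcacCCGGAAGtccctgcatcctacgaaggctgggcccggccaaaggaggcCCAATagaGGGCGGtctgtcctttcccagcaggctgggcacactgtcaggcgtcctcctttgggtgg
ZNF579, chr19:55580799-55581098, minus strand: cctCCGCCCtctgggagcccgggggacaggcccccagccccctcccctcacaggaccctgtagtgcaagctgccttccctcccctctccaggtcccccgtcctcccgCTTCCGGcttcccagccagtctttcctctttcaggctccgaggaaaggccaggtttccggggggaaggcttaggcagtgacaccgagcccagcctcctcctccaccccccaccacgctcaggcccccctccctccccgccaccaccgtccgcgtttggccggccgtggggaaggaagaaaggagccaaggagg
ZNF460 had both CCAAT and CCGGAAG matches, and so did ZNF549, so these letters did not separate ZNF460 from a gene that fell. The counted row of ZNF460 starts downstream of the promoter shown, while the rows of the other genes shown start inside theirs.

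Counts assigned to genes totalled 43.3 to 77.9 M with SY-351 and 103.7 to 124.2 M in DMSO, and 3 counts equalled 0.0363 to 0.0676 CPM with SY-351 and 0.015 to 0.0441 CPM in DMSO (reads relative to library size, TMM-adjusted). DMSO replicates 1 and 2 stood apart from all other libraries. Over the 238 zinc finger genes, Pearson's r of log2 CPM, a description across genes that are not independent, was 0.826 to 0.847 between SY-351 libraries and DMSO 3 and 4 but 0.312 to 0.386 between SY-351 libraries and DMSO 1 and 2. The DMSO pairs had r of 0.379 to 0.434 with each other, and r of 0.994 between DMSO 3 and 4 and 0.983 between DMSO 1 and 2. Of 7 promyelocyte markers 4 had a row. MPO measured 28258 to 32719 CPM with SY-351, 12116 to 15764 CPM in DMSO 3 and 4 and 41361 to 48112 CPM in DMSO 1 and 2. CTSG measured 586 to 669.9 CPM with SY-351, 211 to 280.2 CPM in DMSO 3 and 4 and 19.4 to 83.9 CPM in DMSO 1 and 2, and MYB 128 to 137 CPM with SY-351 and 207 to 305 CPM in DMSO. CD33 measured 74.9 to 80.3 CPM with SY-351, 62.4 to 86.4 CPM in DMSO 3 and 4 and 3.1 to 5.64 CPM in DMSO 1 and 2. CD3E, MS4A1, HBB and PPBP, markers of other blood cells, reached at most 3.4 CPM. Results are therefore given with all 4 controls and without DMSO 1 and 2.

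Against all 4 controls the zinc finger genes fell more often than they rose. Of 238 genes 42 were lower and 1 higher with SY-351 (edgeR, adjusted p below 0.05), where 13.6% of all 15472 genes tested were lower and 2.91% higher. The lower share among the zinc finger genes was 17.6%, and 21.9% of 915 other chromosome 19 genes and 21.2% of 241 ZNF genes of other chromosomes were lower. The median log2 fold of the 238 genes was -0.21, beside 0.00 for all genes. In 53 zinc finger genes the highest SY-351 library was under the lowest DMSO library, and in 22 the lowest was over the highest, where 18.2% and 15.5% of all genes did so. The count of lower genes was 11, 14, 11 and 15 without SY-351 1, 2, 3 and 4. The 37 genes without the KRAB pattern gave 17 of the 42 falls and the KRAB genes 25, and the medians were -1.70 and -0.13.

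The 6 largest falls against all 4 controls that met the rule for naming were in genes without the KRAB pattern, and DMSO 1 and 2 were far above DMSO 3 and 4 in each. ZNF579 (chromosome 19, 55576773 to 55580848) measured 3.55, 3.57, 3.76 and 3.83 CPM in SY-351 1 to 4, against 18.8 and 25.7 CPM in DMSO 3 and 4 and 279 and 317 CPM in DMSO 1 and 2. Each SY-351 library lay below each control, and the controls themselves fell into separate pairs. The log2 fold of ZNF579 was -5.44 ± 1.03 (SE, adjusted p = 0.0124), and -2.58 ± 0.17 (SE, adjusted p = 9.08e-48) without DMSO 1 and 2. ZNF865, with 21 fingers, measured 23, 23.5, 23 and 22.7 CPM in SY-351 1 to 4, against 49.5 and 65.5 CPM in DMSO 3 and 4 and 604 and 748 CPM in DMSO 1 and 2. Its groups did not overlap either, and its log2 fold was -3.99 ± 0.93 (SE, adjusted p = 0.025) against all controls and -1.30 ± 0.15 (SE, adjusted p = 4.82e-16) without DMSO 1 and 2. In both genes the gap between the pairs of controls was larger than the gap between SY-351 and DMSO 3 and 4. ZNF296, ZNF835, ZNF414 and ZNF628 had log2 folds of -4.58 ± 0.99, -4.44 ± 0.74, -3.98 ± 0.91 and -3.84 ± 0.96 (SE), and -1.72 ± 0.19, -2.87 ± 0.27, -1.32 ± 0.17 and -0.97 ± 0.18 without DMSO 1 and 2. The row of ZNF296 overlaps a row on the opposite strand, and whether the kit kept strand is not given. Except for ZNF835, these calls did not survive the removal of any single SY-351 library. For ZNF579, the adjusted p then ranged from 0.0557 to 0.059, and for ZNF865 from 0.0875 to 0.0909, and ZNF865 was also lost without DMSO 1 (adjusted p = 0.0555). The calls of ZNF414 and ZNF628 were also lost without DMSO 1, and that of ZNF628 without DMSO 2. The part of transcript GC content and of the library pair in these falls was not tested, and the values that move with them are given below.

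ZNF549 and ZNF274 fell by similar amounts whichever controls were used. ZNF549 (chromosome 19, 57527355 to 57540876), a KRAB gene, measured 1.74, 2.07, 2.68 and 1.46 CPM in SY-351 1 to 4, against 14.2 and 19 CPM in DMSO 3 and 4 and 19.4 and 28.7 CPM in DMSO 1 and 2. Every SY-351 library lay far below every control. The log2 fold of ZNF549 was -3.35 ± 0.37 (SE, adjusted p = 0.00291), and -3.03 ± 0.19 (SE, adjusted p = 1.66e-54) without DMSO 1 and 2. ZNF274 (chromosome 19, 58183060 to 58213562), the KRAB protein that marks other zinc finger genes for H3K9 methylation, measured 10.4, 11.3, 11.8 and 11.3 CPM in SY-351 1 to 4, against 47 and 61.7 CPM in DMSO 3 and 4 and 49.5 and 39 CPM in DMSO 1 and 2. The groups did not overlap, and the lowest control was more than 3 times the highest SY-351 library. Its log2 fold was -2.14 ± 0.25 (SE, adjusted p = 0.00321), and -2.25 ± 0.15 (SE, adjusted p = 1.6e-47) without DMSO 1 and 2. ZNF71, named for its splicing, fell by 3.69 on the log2 scale (SE 0.59, adjusted p = 0.00774) against all controls and by 2.35 without DMSO 1 and 2.

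ZNF460 was the gene called higher against all 4 controls. ZNF460 (chromosome 19, 57280484 to 57294069), a KRAB gene with 11 fingers in the same cluster as ZNF549 and ZNF274, measured 15.2, 17.6, 17.4 and 16.5 CPM in SY-351 1 to 4, against 3.82 and 5.39 CPM in DMSO 3 and 4 and 6.12 and 6.79 CPM in DMSO 1 and 2. Every SY-351 library was above every control, and the 4 controls stayed in a narrow range. Its log2 fold was 1.59 ± 0.29 (SE, adjusted p = 0.011), and 1.88 ± 0.19 (SE, adjusted p = 1.01e-22) without DMSO 1 and 2. The call was lost without any single SY-351 library (adjusted p of 0.051 to 0.0568), with a log2 fold of 1.56 to 1.67.

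**Figure D1:**
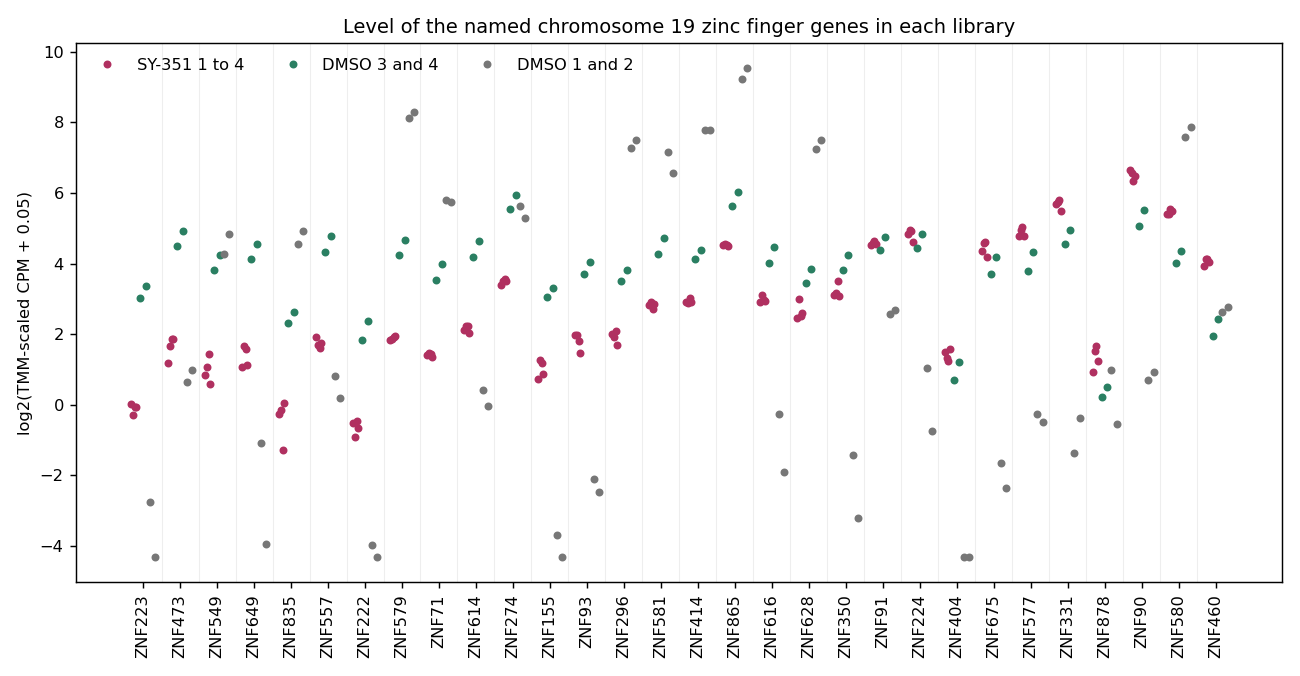
Level of 30 named zinc finger genes in each library, as log2 of TMM-scaled CPM plus 0.05, ordered by their log2 fold of SY-351 over DMSO 3 and 4. Each point is 1 library, with SY-351 left, DMSO 3 and 4 in the middle and DMSO 1 and 2 right within each gene. ZNF274 and ZNF549 have their controls together, while ZNF579 and ZNF865 have DMSO 1 and 2 highest and ZNF223 and ZNF331 have them lowest.

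Without DMSO 1 and 2 most of the family was lower with SY-351. Of 238 genes 141 were lower and 22 higher, where 26.4% of all 15811 genes tested were lower and 21.9% higher, and 75 were not called. The lower share of the zinc finger genes was 59.2% and the higher share 9.24%, beside 44.6% and 12.4% of 242 ZNF genes of other chromosomes and 25.1% and 30.2% of 945 other chromosome 19 genes. The median log2 fold was -0.70, beside 0.01 for all genes. Total count scaling of the same 6 libraries moved the median of all genes to -0.45 and gave 171 lower and 9 higher zinc finger genes with a median of -1.12. KRAB genes and the others had nearly the same median here, -0.64 and -0.80, with 119 of 201 and 22 of 37 lower and 18 and 4 higher. Counts of fingers and GC content of the transcript had Spearman's rho of 0.02 and -0.11 with this log2 fold over the 238 genes, and the length of the counted interval had 0.27.

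Of the 6 largest falls without DMSO 1 and 2, 4 were in KRAB genes, and ZNF473 and ZNF835 lacked the KRAB pattern. ZNF223 (chromosome 19, 44052035 to 44067999) measured 0.972, 0.762, 0.913 and 0.901 CPM in SY-351 1 to 4, against 8.18 and 10.3 CPM in DMSO 3 and 4 and 0.0987 and 0 CPM in DMSO 1 and 2. SY-351 lay between the pairs of controls, so the direction depended on which pair was used. ZNF223 had a log2 fold of -3.36 ± 0.23 (SE, adjusted p = 1.14e-44) without DMSO 1 and 2 and 3.95 ± 0.69 (SE, adjusted p = 0.000549) when that pair was the only control. ZNF473, whose product takes part in the 3′ end processing of histone pre-mRNA, measured 2.23, 3.15, 3.62 and 3.61 CPM in SY-351 1 to 4, against 22.8 and 30.5 CPM in DMSO 3 and 4 and 1.51 and 1.94 CPM in DMSO 1 and 2. The SY-351 libraries were again below DMSO 3 and 4 and above DMSO 1 and 2. ZNF473 had a log2 fold of -3.06 ± 0.17 (SE, adjusted p = 1.59e-68) without DMSO 1 and 2 and 0.72 ± 0.26 (SE, adjusted p = 0.0291) with these as the only controls. ZNF649 and ZNF557 had log2 folds of -2.97 ± 0.18 (SE, adjusted p = 7.11e-59) and -2.82 ± 0.17 (SE, adjusted p = 3.26e-57) without DMSO 1 and 2, and both were likewise above DMSO 1 and 2, by 3.39 and 1.09 on the log2 scale. ZNF835 and ZNF549, described above, complete the 6, and these 2 were below both pairs.

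The rises without DMSO 1 and 2 were smaller. ZNF90 (chromosome 19, 20077999 to 20121161), a KRAB gene of the pericentromeric cluster, measured 100.8, 94.2, 81.3 and 89.2 CPM in SY-351 1 to 4, against 33.8 and 45.8 CPM in DMSO 3 and 4 and 1.58 and 1.87 CPM in DMSO 1 and 2. Every SY-351 library was above every control, with a log2 fold of 1.22 ± 0.17 (SE, adjusted p = 5.23e-12) without DMSO 1 and 2 and 2.14 ± 1.03 (SE, adjusted p = 0.193) with them. ZNF331 (chromosome 19, 53555306 to 53580269), an imprinted KRAB gene, measured 51.4, 54.1, 55.5 and 44.8 CPM in SY-351 1 to 4, against 23.7 and 30.8 CPM in DMSO 3 and 4 and 0.339 and 0.72 CPM in DMSO 1 and 2. Its groups did not overlap, and its log2 fold was 0.94 ± 0.17 (SE, adjusted p = 9.54e-08) without DMSO 1 and 2 and 1.89 ± 1.21 (SE, adjusted p = 0.318) with them. The spread of the 4 controls was wide enough that neither ZNF90 nor ZNF331 was called with all 8 libraries. ZNF577 and ZNF878 had log2 folds of 0.84 ± 0.16 (SE, adjusted p = 1.34e-06) and 1.05 ± 0.30 (SE, adjusted p = 0.00144) without DMSO 1 and 2. With total count scaling of the same libraries the call of ZNF878 was lost, with a log2 fold of 0.62 (edgeR, adjusted p = 0.107). That of ZNF577 was kept, at 0.42 (edgeR, adjusted p = 0.00349). ZNF580 (chromosome 19, 55641001 to 55643470), without the KRAB pattern, measured 42.5, 42.8, 46.4 and 45.2 CPM in SY-351 1 to 4, against 16 and 20.7 CPM in DMSO 3 and 4 and 193 and 234 CPM in DMSO 1 and 2. SY-351 lay above one pair of controls and below the other, with a log2 fold of 1.29 ± 0.17 (SE, adjusted p = 2.46e-13) without DMSO 1 and 2 and -2.42 ± 0.09 (SE, adjusted p = 9.75e-09) with these as the only controls. ZNF581 starts 177 bases after the end of ZNF580 on the same strand, and it measured 7.04, 7.5, 6.53 and 7.19 CPM in SY-351 1 to 4, against 19.2 and 26.5 CPM in DMSO 3 and 4 and 143 and 94.4 CPM in DMSO 1 and 2. The neighbour was below both pairs, with a log2 fold of -1.67 ± 0.16 (SE, adjusted p = 5e-23) without DMSO 1 and 2.

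Members known for single targets did not move as one. ZNF91 and ZNF93 repress SVA and LINE-1 retrotransposons and lie in the same cluster. ZNF91 measured 23.1, 24, 25.1 and 23.4 CPM in SY-351 1 to 4, against 20.9 and 26.8 CPM in DMSO 3 and 4 and 5.87 and 6.45 CPM in DMSO 1 and 2. SY-351 overlapped DMSO 3 and 4, with a log2 fold of 0.03 ± 0.16 (SE, adjusted p = 0.924) without DMSO 1 and 2. ZNF93 measured 3.93, 3.91, 3.42 and 2.7 CPM in SY-351 1 to 4, against 12.9 and 16.4 CPM in DMSO 3 and 4 and 0.183 and 0.132 CPM in DMSO 1 and 2. SY-351 lay below DMSO 3 and 4 and above DMSO 1 and 2, with a log2 fold of -2.04 ± 0.19 (SE, adjusted p = 8.32e-27) without DMSO 1 and 2 and -1.08 ± 1.29 (SE, adjusted p = 0.589) with them. ZNF350, which acts with BRCA1 as a repressor of GADD45A, measured 8.65, 8.88, 11.2 and 8.45 CPM in SY-351 1 to 4, against 14.03 and 19 CPM in DMSO 3 and 4 and 0.324 and 0.0588 CPM in DMSO 1 and 2, with a log2 fold of -0.80 ± 0.17 (SE, adjusted p = 6.71e-06) without DMSO 1 and 2 and 0.16 ± 1.31 (SE, adjusted p = 0.945) with them. ZNF224, a repressor of the aldolase A gene, measured 28.9, 31, 30.6 and 24.3 CPM in SY-351 1 to 4, against 21.8 and 28.9 CPM in DMSO 3 and 4 and 2.02 and 0.543 CPM in DMSO 1 and 2. Its log2 fold was 0.20 ± 0.16 (SE, adjusted p = 0.316) without DMSO 1 and 2, a change that did not pass the test.

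**Figure D2:**
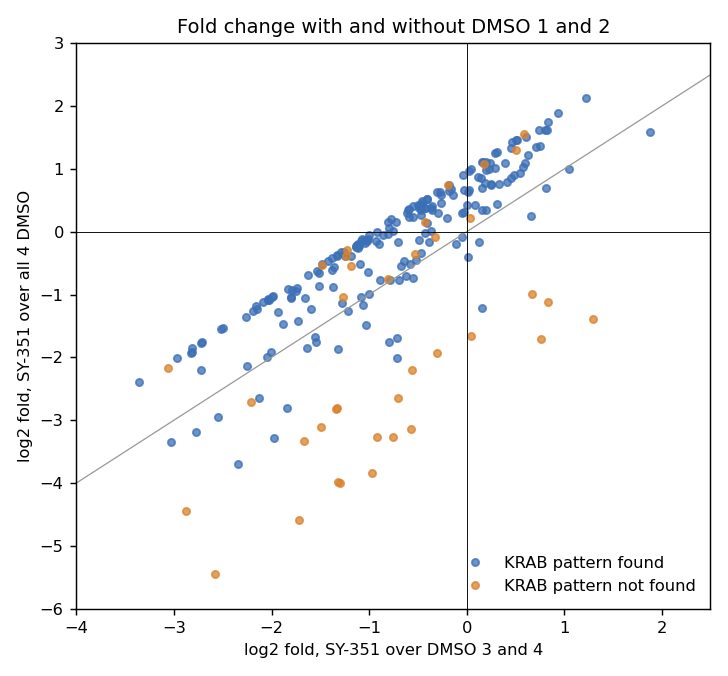
Log2 fold of SY-351 over all 4 DMSO libraries (vertical) against that over DMSO 3 and 4 (horizontal), 1 point for each of 238 zinc finger genes, with the line of equal values. Most KRAB genes lie above the line, with a median gap of 0.77, and most genes without the KRAB pattern lie below it, with a median gap of -1.57.

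The controls were compared with each other as a description, since the split was seen in the data. KRAB zinc finger RNA was high in DMSO 3 and 4 and low in DMSO 1 and 2, and the reverse held for most of the genes without the KRAB pattern. DMSO 3 and 4 were both above DMSO 1 and 2 in 169 of 238 genes and both below in 40, where 43.9% and 37.1% of all genes were so. In KRAB genes these counts were 157 and 18 of 201, and in the others 12 and 22 of 37. The median log2 ratio was 2.53 over all zinc finger genes, 2.81 in KRAB genes and -2.29 in the others, beside 0.34 for all genes, -1.83 for other chromosome 19 genes and 0.77 for ZNF genes of other chromosomes. Total count scaling moved the ratio of all genes to 1.46 and that of these genes to 3.60, 3.91 in KRAB genes and -1.21 in the others, and 207 genes were then above. KRAB genes made up 0.185 to 0.221% of all counts with SY-351, 0.371 and 0.373% in DMSO 3 and 4 and 0.0665 and 0.0676% in DMSO 1 and 2. Genes without the pattern made up 0.055 to 0.0618% with SY-351, 0.115% in both DMSO 3 and 4 and 0.234 and 0.255% in DMSO 1 and 2.

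When DMSO 1 and 2 were the only controls the picture turned, and 153 zinc finger genes were higher and 62 lower with SY-351, where 40.8% of all genes tested were higher and 38.4% lower. The median log2 fold was then 1.74, and it was 2.10 in KRAB genes and -2.57 in the others. Which pair represents untreated cells was not tested.

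Genes with the largest ratios between the pairs had almost no reads in DMSO 1 and 2. ZNF404 had 636 counts in DMSO 3 and 4 together and 0 in DMSO 1 and 2, a level at least 86.5-fold higher in DMSO 3 and 4 with 3 counts over the pair as the floor. ZNF155 had 3038 counts against 2, a ratio of 619.7 with an exact 95% interval of 171 to 5120, and ZNF222 had 1420 counts against 1, a ratio of 579 with an interval of 104 to 22899. These intervals cover counting error only. ZNF404, ZNF155 and ZNF222 lie in the cluster that also holds ZNF223 and ZNF224. ZNF404 measured 2.79, 2.44, 2.3 and 2.95 CPM in SY-351 1 to 4, ZNF155 1.63, 2.36, 2.21 and 1.78 CPM and ZNF222 0.656, 0.484, 0.685 and 0.586 CPM in the same libraries. At the other end ZNF579, ZNF628 and ZNF296 were 13.4-, 13.4- and 13.3-fold lower in DMSO 3 and 4 than in DMSO 1 and 2. Only 5 of 238 genes had at most 3 counts in DMSO 1 and 2 together, and 14 had fewer than 10.

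The GC content of the RNA moved with this split. For the zinc finger genes the transcript with the longest protein was used, and its median GC content was 42.3% in KRAB genes and 61% in the others. For the whole table the longest coding transcript was used instead, with a median of 48.6% in 15270 genes tested that had one in GENCODE v29. Spearman's rho between transcript GC and the log2 ratio of DMSO 3 and 4 over DMSO 1 and 2 was -0.53 over 237 zinc finger genes, -0.36 in KRAB genes and -0.87 in the 37 others. Over 15237 genes of the whole table, with their longest coding transcript, it was -0.59. Below 55% GC, a limit chosen after the values were seen, all 13 genes without the KRAB pattern were higher in DMSO 3 and 4, as were 172 of 197 KRAB genes. At or above 55%, all 4 KRAB genes and 22 of 24 others were lower in DMSO 3 and 4. The part of GC content in the split was not tested. In the comparison without DMSO 1 and 2 the medians of the 4 sets, which were -0.61 and -1.91 for KRAB genes and -0.80 and -0.83 for the others below and above the limit, were all negative.

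**Figure D3:**
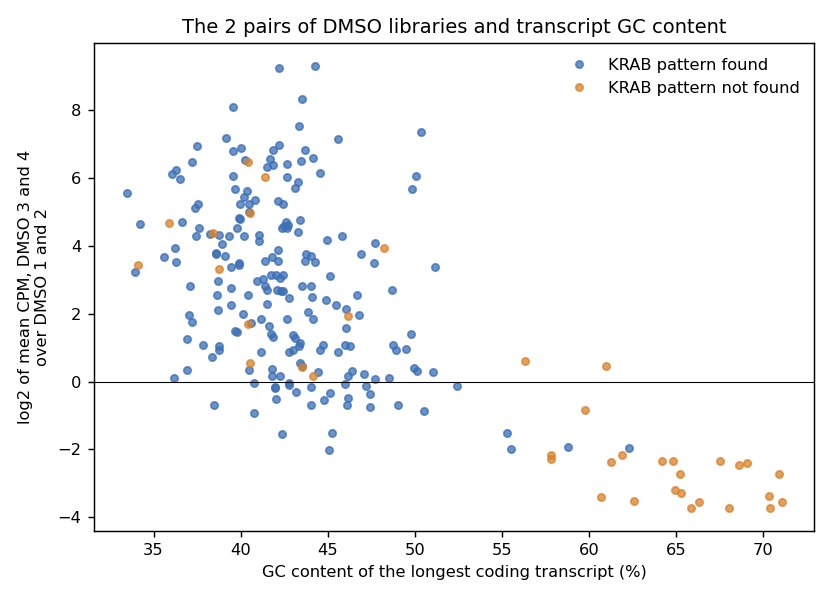
Log2 ratio of the mean CPM of DMSO 3 and 4 over that of DMSO 1 and 2 (vertical) against the GC content in percent of the transcript with the longest protein (horizontal, named longest coding transcript on the axis) for 237 zinc finger genes, with ZNF404 left out because it had 0 counts in DMSO 1 and 2. All 13 genes without the KRAB pattern under 55% GC are above 0, and all 4 KRAB genes over it are below 0.

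Genes less than 1000 kb apart were joined into clusters along the chromosome (coordinates on GRCh38), which gave 15 groups, 7 of them with at least 10 members. Genes fell in every one of the 7 when DMSO 1 and 2 were left out, where 26.4% of all genes tested were lower and 21.9% higher. The pericentromeric cluster 5, from ZNF101 to ZNF254 (19668152 to 24129967, 33 genes), had 12 lower and 4 higher genes, 17 not called and a median log2 fold of -0.26. Cluster 11, from ZNF575 to ZNF296 (43533187 to 45076478, 24 genes), had 18 lower and 1 higher and a median of -1.20. Cluster 9, from ZNF565 to ZNF573 (36182059 to 37779590, 27 genes), had 17 lower and 2 higher, with a median of -0.81. Cluster 14, from ZNF175 to ZNF331 (51571282 to 53580269, 39 genes, all with the KRAB pattern), had 25 lower and 4 higher, with a median of -0.60. The subtelomeric cluster 15, from ZNF628 to ZNF446 (55476616 to 58481230, 59 genes), had 35 lower and 5 higher, with a median of -0.72. Clusters 2 and 3 on the short arm had medians of -0.46 and -0.58. A small cluster from ZNF302 to ZNF792 (34677677 to 34964229) had all 5 of its genes lower, with a median of -1.55, and 4 of the 5 were also lower against all 4 controls. The difference between clusters was not tested.

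The split between the controls varied along the chromosome. The median log2 ratio of DMSO 3 and 4 over DMSO 1 and 2 was 4.53 in cluster 5, 3.56 in cluster 9, 4.48 in cluster 11 and 4.34 in cluster 14, but 0.94 in cluster 2, 1.59 in cluster 3 and 0.09 in cluster 15. All 33 genes of cluster 5 were higher in both DMSO 3 and 4. Among KRAB genes alone the medians were 0.57 in cluster 15, 1.39 in cluster 2, 1.75 in cluster 3 and 3.56 to 4.61 in the other clusters. Median transcript GC of these KRAB genes was lowest in cluster 5, at 37.6%, highest in cluster 15, at 46.1%, and between 41.3 and 43.5% in the other 5. Cluster 15 held 23 of the 42 genes that were lower against all 4 controls, and 59 of the 238 genes tested. These differences between clusters were not tested.

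**Figure D4:**
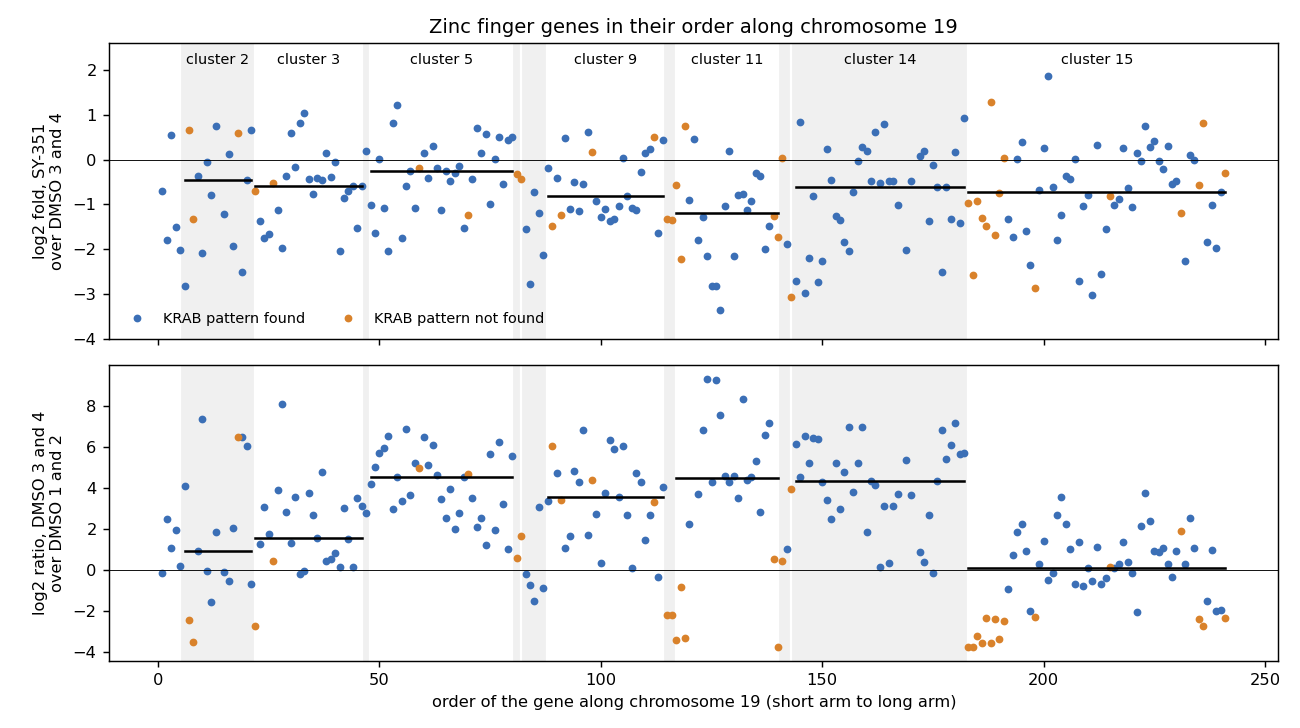
Zinc finger genes in their order along chromosome 19, with the log2 fold of SY-351 over DMSO 3 and 4 above and the log2 ratio of DMSO 3 and 4 over DMSO 1 and 2 below. Shading separates neighbouring clusters and black lines are medians of the 7 clusters with at least 10 genes, which run from -1.20 to -0.26 above and from 0.09 to 4.53 below.

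Splicing was read from the authors' deposited table, which gives no values per sample and whose control libraries are not named. A local splicing variation is a set of junctions, and at times a retained intron, that share an exon end. Of 95 chromosome 19 zinc finger genes in the authors' deposited table, 74 had a variation past a posterior probability of 0.95, where 64.2% of all 3700 genes had one. The share was 77.9%, beside 77.1% of 96 ZNF genes of other chromosomes and 50.3% of 159 other chromosome 19 genes in the authors' deposited table. Of the 158 variations 99 passed (62.7%, beside 55.7% of the whole table). Among the 158 in the authors' deposited table, the smallest difference of a most changed junction was -17 percentage points, in ZNF226. The shares are therefore of listed genes, and whether small changes were left out before deposit is not given in the sources used here. Of the 158 in the authors' deposited table, 148 contained exon skipping, 67 an alternative 3′ splice site, 53 an alternative 5′ splice site, 26 an intron and 127 a junction absent from the annotation (80.4%, beside 84.9% for other genes). These shares are close to those of all other genes in the authors' deposited table, which were 90.7% for skipping and 18.2% for introns.

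The 8 genes with the largest differences included genes of each direction of RNA change. The authors' deposited table gave ZNF331 a 2-way choice in which the annotated junction had an inclusion of 8.1% with SY-351 against 94.6% in control and the retained intron 91.9% against 5.4%, while its RNA was higher with SY-351. For ZNF675, whose product inhibits TRAF6 signalling, the authors' deposited table gave an annotated junction 11.5% with SY-351 against 92.4% in control, and the intron of another variation 71.7% against 6.4%. For ZNF90 it gave, in the authors' deposited table, an annotated junction 87.3% with SY-351 against 10% in control. These 3 genes had higher RNA with SY-351 than in DMSO 3 and 4, and ZNF675 had a log2 fold of 0.51 ± 0.16 (SE, adjusted p = 0.00398). With total count scaling of the same libraries the log2 fold of ZNF675 was 0.0965 (edgeR, adjusted p = 0.562). The counted rows include introns, so reads of a retained intron add to these levels, and a rise of spliced RNA was not tested. ZNF616 had an unannotated junction at 88.9% with SY-351 against 4.7% in control in the authors' deposited table, and ZNF614 an annotated one at 1.4% against 80.5%. Both had lower RNA, with log2 folds of -1.26 ± 0.17 (SE, adjusted p = 3.66e-13) and -2.27 ± 0.17 (SE, adjusted p = 5.23e-38) without DMSO 1 and 2. ZNF816, which has 0 assigned counts, had an annotated junction at 97.2% with SY-351 against 11.6% in control in the authors' deposited table. ZNF71 and ZNF581 had leading junctions at 13.1% and 28% with SY-351 against 85.2% and 94.9% in control in the authors' deposited table.

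The neighbours ZNF580 and ZNF581 each had a splicing variation past the threshold. In the authors' deposited table an unannotated junction from ZNF580 had an inclusion of 65.1% with SY-351 against 1.7% in control, and the leading junction of ZNF581, unannotated as well, had 28% against 94.9%. The junctions belong to separate variations, so their directions do not compare the genes. For splicing, ZNF580 was chosen after its values were seen. Among the always-named genes, the authors' deposited table gave ZNF224 an intron at 62.8% with SY-351 against 24.3% in control, although its level did not pass the test. ZNF274 had an intron at 40.8% with SY-351 against 8.4% in control in the authors' deposited table, with a probability of 0.972. ZNF91 and ZNF93 each had an annotated junction that was lower with SY-351, at 45.3 and 62.4% against 89.7 and 95.3% in control in the authors' deposited table. ZNF350 had a variation that stayed under the threshold, with a probability of 0.858 in the authors' deposited table.

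The direction of the leading junction depended in part on how it was picked. In a 2-way choice the options change by equal amounts in opposite directions, and the falling option was recorded as leading in these genes. In the 99 variations past the threshold the most changed junction was higher with SY-351 in 39 and lower in 60 in the authors' deposited table. These counts therefore do not show a net loss of inclusion. The leading junction was unannotated in 17, and 12 of these were higher with SY-351, while 27 of 82 annotated ones were. Over all other genes the authors' deposited table had 366 of 465 unannotated and 622 of 3174 annotated leading junctions higher with SY-351. Introns of the zinc finger genes went both ways, with 6 of 12 past the threshold higher with SY-351 and 6 lower, beside 114 higher and 297 lower in other genes in the authors' deposited table.

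**Figure D5:**
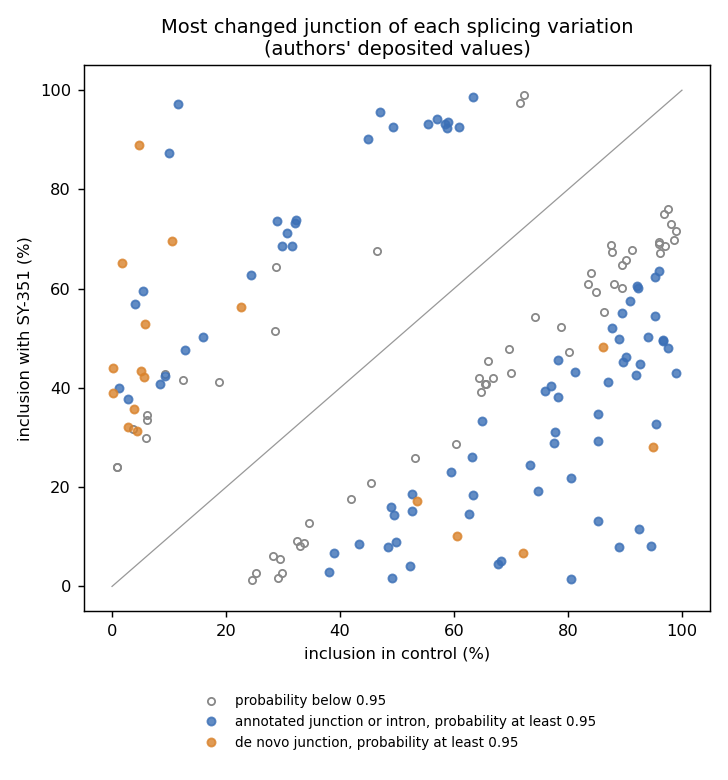
Inclusion in percent with SY-351 (vertical) against control (horizontal) of the most changed junction in each of 158 zinc finger splicing variations of the authors' deposited table, with the line of equal values. Of the 99 filled points (probability at least 0.95) 39 lie above the line and 60 below it, and 12 of the 17 unannotated junctions lie above it. For a 2-way choice the falling option is drawn, and the option not drawn rises as much.

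Of 84 genes with both measurements, 66 had a splicing variation past the threshold. Without DMSO 1 and 2, 30 of these 66 were lower and 13 higher, where 26.4% and 21.9% of all genes tested were so. The median log2 fold of the 66 genes was -0.33. Of the 18 genes whose variations did not pass, 15 were lower, with a median of -0.79. Of 154 tested genes that the authors' deposited table does not list, 96 were lower and 9 higher, with a median of -0.75. Genes with a called variation had a median of 16.8 CPM in DMSO 3 and 4, beside 14.02 and 8.24 CPM in the other sets, so being listed moved with the level. Whether an unlisted gene was unchanged or not measured is not given in the sources used here. A further 10 names of the splicing table, such as ZNF468 and ZNF100, had no count row under that symbol. In cluster 2 all 8 genes with a variation passed, in cluster 15 it was 21 of 24, in cluster 5 it was 13 of 16, in cluster 14 it was 13 of 17, in cluster 9 it was 7 of 12, in cluster 11 it was 2 of 4 and in cluster 3 it was 1 of 2, where 64.2% of all genes of the authors' deposited table passed.

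The partners through which KRAB proteins silence chromatin were read beside them. Of 26 genes of this list 24 had a row, and edgeR called 5 lower and 0 higher with all 8 libraries (1 higher at an unadjusted p below 0.05, and 1 by DESeq2), where 13.6% of all genes were lower and 2.91% higher. Without DMSO 1 and 2 the counts were 11 lower and 3 higher, where 26.4% and 21.9% of all genes were so, and with that pair as the only controls 12 lower and 11 higher, where 38.4% and 40.8% were. The list medians were -0.30, -0.32 and 0.06 on the log2 scale in these comparisons. SUV39H1, an H3K9 methyltransferase, measured 4.15, 5.03, 4.54 and 3.74 CPM in SY-351 1 to 4, against 39.5 and 51 CPM in DMSO 3 and 4 and 51.8 and 46.5 CPM in DMSO 1 and 2. Each SY-351 library was far below each control, with a log2 fold of -3.43 ± 0.26 (SE, adjusted p = 0.00288). TRIM28, the KRAB co-repressor, measured 350.2, 334, 332 and 322 CPM in SY-351 1 to 4, against 451 and 552 CPM in DMSO 3 and 4 and 2444 and 2168 CPM in DMSO 1 and 2, with a log2 fold of -2.07 ± 0.62 (SE, adjusted p = 0.0563), and -0.56 ± 0.16 (SE, adjusted p = 0.00114) without DMSO 1 and 2. SETDB1, its methyltransferase partner, measured 32.7, 31.7, 35.7 and 32 CPM in SY-351 1 to 4, against 63.3 and 83.1 CPM in DMSO 3 and 4 and 10.8 and 2.85 CPM in DMSO 1 and 2. SETDB1 lay below DMSO 3 and 4 and above DMSO 1 and 2, with a log2 fold of -1.13 ± 0.16 (SE, adjusted p = 3.3e-12) without DMSO 1 and 2 and -0.28 ± 0.86 (SE, adjusted p = 0.843) with them. TRIM24 and UHRF1, which brings DNMT1 to replicated DNA, had log2 folds of -2.12 ± 0.37 (SE, adjusted p = 0.00922) and -3.62 ± 0.70 (SE, adjusted p = 0.013) with all 8 libraries, and -1.48 ± 0.15 and -1.89 ± 0.15 (SE) without DMSO 1 and 2. The call of UHRF1 with all 8 libraries was lost without any single SY-351 library (edgeR, adjusted p of 0.0584 to 0.0616), and that of TRIM24 was lost without SY-351 1 (0.0522) or 3 (0.0509).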

How the data were processed

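Polyadenylated RNA was extracted with TRIzol and made into Illumina TruSeq RNA libraries, per the labels' protocols. Reads per gene are deposited as raw counts, which the authors made with featureCounts 1.6.2 at strand setting 1, per the file headers. A row covers the whole span of 1 RefSeq transcript with its introns, so unspliced RNA counts too. The build is GRCh38 and DESeq2 was used, per the submitters' processing notes. Each count column stands for a replicate with 2 technical repeats, and how they were joined is not given in the sources used here. A separate deposited table holds the authors' expected inclusion, its difference and a posterior probability, used here as a score for each junction with the column names of MAJIQ output, per the file headers. Its build differs, so no splicing coordinate is given. Its difference was turned to SY-351 minus control, and which libraries entered it is not given in the sources used here.

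Symbols came from a RefSeq gene table (17871 rows) and GENCODE (130), and 92 rows stayed unmatched; of the zinc finger genes 240 came from the first and 1 from the second. The test across all genes was that of edgeR 4.0.16, run in R 4.3.3 (TMM, filterByExpr, robust quasi-likelihood test, two-sided, Benjamini-Hochberg adjusted over all genes tested), with group as the only term. The SE of a log2 fold was derived from the F statistic, as fold over root F. KRAB boxes and fingers were found in proteins translated from GENCODE v29 transcripts, and promoters are from RefSeq, with entries for 209 of the 241 genes. The zinc finger genes, lists and rules were chosen with earlier results of these data known. The rule always named ZNF91, ZNF93, ZNF274, ZNF331, ZNF350 and ZNF224. It further named the 6 largest folds each way among called genes with a mean of 1 CPM or more whose groups did not overlap, with 8 libraries and without DMSO 1 and 2, the 3 largest ratios each way between the DMSO pairs, the 8 largest splicing differences past a probability of 0.95, and TRIM28, SETDB1 and the 3 partners with the smallest adjusted p. The pipeline was tested on simulated counts. With the wide spread of the 4 controls few changes can pass, and a gene not called with 8 libraries is not shown to be unchanged. Alternatives were DESeq2 1.42.0, other size factors, total count scaling, no filter, a replicate block, leaving out libraries, other probabilities, a 500 kb gap and a looser KRAB pattern. Some markers of other blood cells are not reported here. Figures used matplotlib 3.10.9.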

Additional observations from a re-analysis of the deposited data

Results flagged for a closer look

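In 1 of 60 groups of 4 libraries checked over the named zinc finger genes, a single library stood apart from the other 3. ZNF350 measured 11.2 CPM in SY-351 replicate 3, where the other SY-351 libraries measured 8.45 to 8.88 CPM. Chance alone flags about 1 in 20 such groups.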

How the results depend on the processing

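Against the 42 lower and 1 higher zinc finger genes with 8 libraries, leaving out DMSO 1 and 2 gave 141 and 22, total count scaling of those 6 libraries (added after seeing the data) 171 and 9, and dropping DMSO 3 and 4 instead 62 and 153. DESeq2 called 58 lower and 3 higher. Leaving out a single library gave 11 to 52 lower and 0 to 4 higher, where without SY-351 1, 2, 3 and 4 edgeR had 0 higher and 6, 1, 1 and 5 at an unadjusted p below 0.05. With the replicate block edgeR called 0 lower and 0 higher (52 zinc finger genes and 3649 of all genes at an unadjusted p below 0.05, and 0 of all genes after adjustment). The numbers share no stated batch, and same-numbered libraries had r of 0.000557, -0.0332, 0.00665 and -0.134 between their deviations from the group means, so they were not treated as pairs. The median log2 fold of -0.21 became -1.12 with total count scaling without DMSO 1 and 2, 1.74 without DMSO 3 and 4 and 0.57 with the replicate block, and ran from -0.53 to 0.32 with 1 library left out. Without DMSO 3 and 4 the log2 fold turned positive for ZNF93 (4.31), ZNF223 (3.95), ZNF473 (0.72), ZNF649 (3.39), ZNF557 (1.09), ZNF155 (6.81), ZNF222 (5.94), ZNF616 (3.80), ZNF614 (1.86) and SETDB1 (2.13). Without DMSO 1 and 2 it turned negative for ZNF350 (-0.80) and positive for ZNF580 (1.29), and with total count scaling as well it was -1.22, 0.86 and, for ZNF91, -0.40. The cause was not tested. The counts of splicing genes (61 to 77), KRAB genes, clusters (19 at 500 kb) and genes higher in DMSO 3 and 4 (207 with total count scaling) stayed within 1.5 times. Depth was lowest with SY-351, at 43.3 to 77.9 M counts.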
